A study of Rattus norvegicus with 6 samples.

Results

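Kidney injury marker genes are transcripts whose rise in renal tubules, or whose protein in urine, is used to detect tubular damage. The 10 genes described here are Havcr1, Lcn2, Clu, Spp1, Timp1, Vcam1, Cd44, Gpnmb, Lgals3 and Tff3. They are known markers picked by name, and their probes are those on the array whose identifier is a RefSeq transcript of one of them. All 10 genes of the 15645 gene symbols on the array were found, on 17 of 61537 probes. The tissue was renal cortex, the outer kidney layer rich in proximal tubules, of male Sprague-Dawley (Crl:CD(SD)) rats that were 5 weeks old when bought. Over 4 weeks 3 rats were given the vehicle, corn oil, and 3 were given 500 mg/kg/day of the fungicide chlorothalonil. Every rat was measured on its own one-colour Agilent array, and the comparison asks which of the markers differ after the fungicide. The source name of chlorothalonil replicate 3 names ethylenediamine dihydrochloride, against its other labels, which give chlorothalonil, so results are also given without it.

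When tubule cells are damaged, the survivors lose features of the mature epithelium, and Havcr1, a surface receptor for dying cells, appears on them. Injured epithelium also secretes Lcn2, which captures bacterial iron carriers, the chaperone Clu, the adhesive phosphoprotein Spp1 and the protease inhibitor Timp1. Vcam1 and Cd44 hold leukocytes and matrix, Gpnmb and Lgals3 are abundant in phagocytes, and Tff3 is a small secreted peptide of mucosal repair. In the healthy kidney Spp1, Clu and Tff3 are also made by tubule segments, so their presence alone does not mark damage.

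The corn oil arrays shared 1 slide and scan day and the chlorothalonil arrays shared another, so the effect of the slide and that of the treatment cannot be told apart. Between 62.1% and 67.8% of probes per array were well above background, with the lowest share in corn oil replicate 3, and no probe was saturated. Proximal tubule markers, which define cortex, were measured for 16 of 16 genes, and their mean log2 level lay between 5.85 and 6.12 on the corn oil arrays and between 6.09 and 6.34 on the chlorothalonil arrays. Levels throughout are log2 signals relative to the array's own 75th percentile, so 0 is that percentile. In these bulk samples, fewer cells of a type and less RNA per cell cannot be told apart.

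No marker passed the test for a difference between the groups. In limma across 29115 features, 0 of 10 had a Benjamini-Hochberg adjusted p under 0.05, and for 0 of 10 the unadjusted p was under 0.05. The shares of all features were 3.12% (1.3% higher and 1.82% lower with chlorothalonil) and 19.7%. Their adjusted p-values lay between 0.484 and 0.992. The log2 fold change, chlorothalonil minus corn oil, was above 0 for 6 markers and below 0 for 4, with a median of 0.02 against 0.00 over all features. For all 10, the difference between the group means was smaller than the range of the 3 animals within either group. The 3 animals of one group lay apart from those of the other for 0 of 10 markers, against 27.7% of all features. With 10 genes, a count of 0 at a background of 3.12% says little by itself, and the intervals below carry more information.

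**Figure D1:**
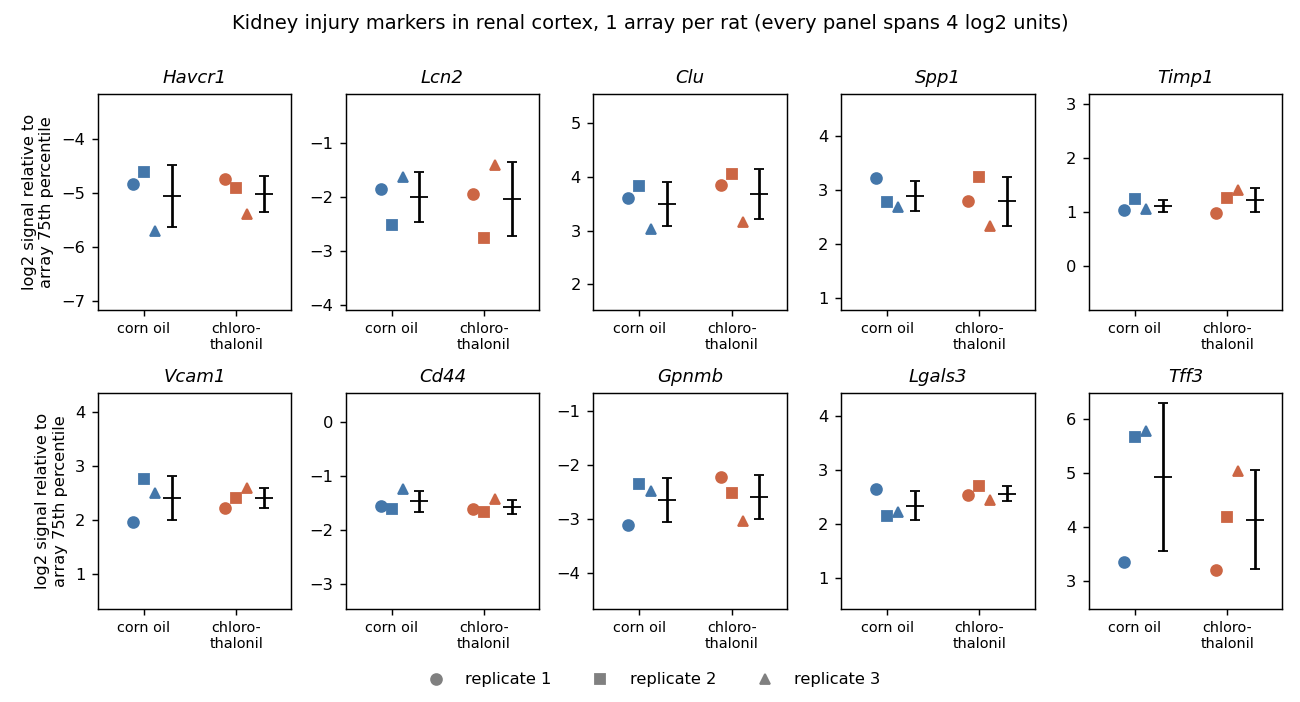
Log2 signal of the 10 markers relative to the array's 75th percentile, 1 point per rat, with corn oil in blue, chlorothalonil in orange and the replicate given by the shape. Bars give the mean ± SD of 3 arrays and every panel spans 4 log2 units; the groups overlap in each panel, and the points of Tff3 lie farthest apart.

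Havcr1, also called KIM-1, is the tubular injury receptor. Its single probe read −4.83, −4.62 and −5.71 with corn oil and −4.75, −4.92 and −5.40 with chlorothalonil, values being given here and below in the order of the replicate numbers. The third array of each group was the dimmest, and the groups overlapped. The means were −5.05 ± 0.57 (SD, n = 3) and −5.02 ± 0.34, a log2 fold change of 0.03 ± 0.32 (SE) with a limma adjusted p of 0.969. The transcript was near the limit of detection. Its processed signals were 31.5, 38.9 and 17.8 with corn oil and 33.2, 30.7 and 19.9 with chlorothalonil, and the spot was 1.29 to 2.06 times as bright as its local background. It was well above background on 5 of 6 arrays, the exception being corn oil replicate 3. That array had the highest ratio to local background, 2.06, and the lowest processed signal, 17.8. On the log2 scale, 25 control sequences at background level had means over the 6 arrays between −7.65 and −6.99, below Havcr1. Chlorothalonil minus corn oil, their median difference was −0.35. Corn oil replicate 3 stood apart in the control with the most spots, 3xSLv1, which read −7.70, −7.66 and −7.00 with corn oil. With chlorothalonil it read −7.86, −7.88 and −7.72. The part of these differences in the value of Havcr1, which was lowest on corn oil replicate 3, was not tested.

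Lcn2, or NGAL, is released by the distal nephron and by neutrophils. It read −1.86, −2.53 and −1.63 with corn oil and −1.95, −2.77 and −1.41 with chlorothalonil. The second array was the lowest and the third the highest in both groups, so the animals of 1 group spanned more than the groups differed. The log2 fold change was −0.04 ± 0.40 (SE), with a limma adjusted p of 0.970. Of 10 neutrophil markers, which would carry Lcn2 with infiltrating cells, 4 were measured and 0 passed in limma, with 0 at an unadjusted p under 0.05. All 4 had a log2 fold change above 0, with a median of 0.40. S100a9, a calcium-binding protein of neutrophils, had a log2 fold change of 0.59 ± 0.25 and an adjusted p of 0.267. The neutrophil list had a mean level between −3.33 and −3.02 with corn oil and between −2.99 and −2.55 with chlorothalonil. The highest of these means and the highest Lcn2 fell on the same array, chlorothalonil replicate 3, and its part in the Lcn2 level was not tested.

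Clu, or clusterin, is a secreted chaperone and a urinary marker of tubular damage. Its brighter probe read 3.61, 3.82 and 3.03 with corn oil and 3.84, 4.04 and 3.16 with chlorothalonil. The second array was the highest and the third the lowest in each group, and the replicate 3 arrays lay below every other array. The log2 fold change was 0.19 ± 0.30 (SE), or 1.14-fold, with a limma adjusted p of 0.769. The other probe gave 0.17 ± 0.31, with the same order of arrays. The arrays lowest for Clu were also the lowest of their group for Havcr1 and the highest of their group for Lcn2. Corn oil replicate 3 and chlorothalonil replicate 3 also had the lowest share of probes well above background within their groups, at 62.1% and 66.6%, whose part in this pattern was not tested.

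Spp1, or osteopontin, is an adhesive protein that binds integrins and Cd44. It read 3.22, 2.78 and 2.68 with corn oil and 2.80, 3.24 and 2.33 with chlorothalonil. Both the highest and the lowest array were from the chlorothalonil group. The log2 fold change was −0.10 ± 0.26 (SE), with a limma adjusted p of 0.871. Timp1, which inhibits matrix metalloproteinases, read 1.02, 1.23 and 1.05 with corn oil and 0.97, 1.26 and 1.40 with chlorothalonil. Its log2 fold change of 0.11 ± 0.13 had an adjusted p of 0.689.

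Vcam1 is the adhesion molecule that binds integrins on leukocytes. It read 1.96, 2.76 and 2.51 with corn oil and 2.23, 2.42 and 2.60 with chlorothalonil. The treated values all lay inside the range of the corn oil values. Its log2 fold change was 0.01 ± 0.22 (SE), the smallest of the 10, with a limma adjusted p of 0.992. Cd44, the hyaluronan receptor, had 6 probes, of which 3 were not well above background on any array and were left untested. The brightest probe read −1.55, −1.6 and −1.24 with corn oil and −1.62, −1.67 and −1.42 with chlorothalonil, a log2 fold change of −0.10 ± 0.13 with an adjusted p of 0.699. The second probe read −1.89, −1.89 and −1.66 against −2.0, −1.90 and −2.11. It was the 1 of 14 tested marker probes whose groups did not overlap, with a log2 fold change of −0.19 ± 0.10. Its adjusted p over 39862 probes was 0.347. Groups apart in this way were found for 27.1% of all probes, while 0 of 14 marker probes had an adjusted p under 0.05, against 2.67% of all probes (1.24% higher and 1.43% lower with chlorothalonil), and 0 of 14 an unadjusted one, against 19.2%. The remaining probe was dim, between −4.72 and −4.00, with a log2 fold change of −0.04 ± 0.22.

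Gpnmb, a glycoprotein of lysosome-rich phagocytes and stressed tubules, read −3.11, −2.35 and −2.48 with corn oil and −2.21, −2.52 and −3.03 with chlorothalonil. Each group held 1 low array, and the log2 fold change was 0.06 ± 0.28 (SE) with a limma adjusted p of 0.934. Lgals3, or galectin-3, binds sugars on cell surfaces and is made by macrophages and collecting duct cells. It read 2.65, 2.15 and 2.23 with corn oil and 2.53, 2.71 and 2.44 with chlorothalonil. Corn oil replicate 1 lay among the treated arrays, and the other two corn oil arrays lay below them. Lgals3 had the smallest adjusted p of the 10 markers, 0.484, with a log2 fold change of 0.22 ± 0.15, or 1.16-fold. Of 16 macrophage markers, 14 were measured and 0 passed in limma, with 1 at an unadjusted p under 0.05. That one was Adgre1, the F4/80 antigen, at −0.47 ± 0.12 with an adjusted p of 0.123. The macrophage list had a mean level between 0.56 and 1.26 with corn oil and between 0.92 and 0.99 with chlorothalonil.

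Tff3, or trefoil factor 3, is secreted by tubule epithelium, and a fall in its urinary protein has been used as a sign of tubular damage in rats. It had the widest spread of the 10 markers. Its brighter probe read 3.34, 5.67 and 5.78 with corn oil and 3.19, 4.18 and 5.04 with chlorothalonil. In processed signal these were 9118, 48670 and 51035 against 8168, 16842 and 27647, a 6.0-fold span from the lowest to the highest array. The first array of each group was the low one, so the corn oil group held both the highest value and a value close to the lowest. The log2 fold change was −0.79 ± 0.79 (SE), with a limma adjusted p of 0.632. The second probe gave −0.84 ± 0.81 with the same order of arrays, so both probes measured this spread. Without corn oil replicate 1 the log2 fold change was −1.58, with the other 2 corn oil arrays above all chlorothalonil arrays. Leaving out chlorothalonil replicate 1 gave −0.32. Leaving out corn oil replicate 2 or 3 gave −0.42 or −0.37, and leaving out chlorothalonil replicate 2 or 3 gave −0.81 or −1.24. In these 6 fits the smallest adjusted p was 0.234.

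**Figure D2:**
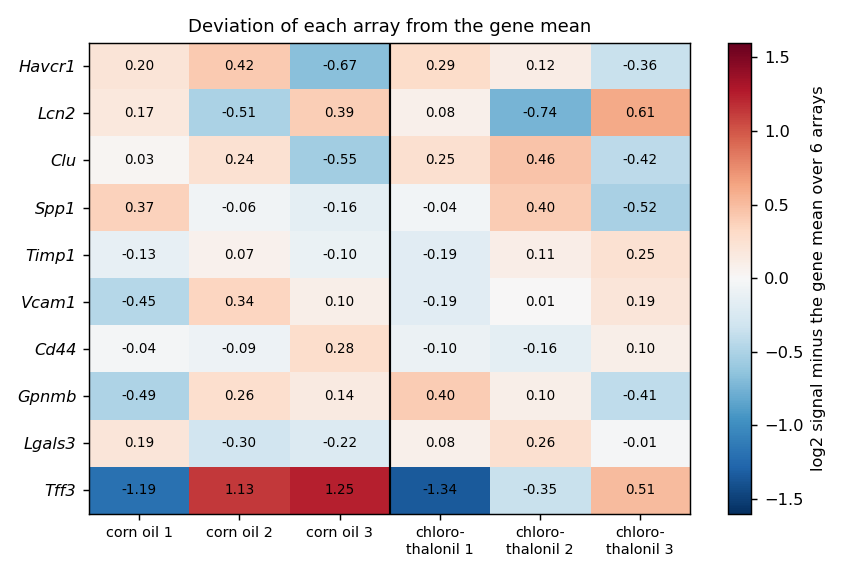
Log2 signal of each marker on each of the 6 arrays minus the gene's mean over the 6 arrays, with red above and blue below that mean and the value in each cell. Tff3 is low on replicate 1 of each group, at −1.19 and −1.34, while Clu is low on replicate 3 of each group, at −0.55 and −0.42.

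The spread between animals of 1 group was wide for these genes. The residual SD, the spread of the arrays around their group mean on the log2 scale, was above the median of all features for 10 of 10 markers. Its median over the markers was 0.39, against 0.13 over all 29115 features. It was 1.17 for Tff3, a value larger than that of 99.3% of features, and 0.59 for Lcn2, larger than that of 95.8%. Cd44 and Timp1 had the smallest, 0.17 each. No array was extreme throughout: chlorothalonil replicate 2 held the highest value of 3 markers and the lowest of 2, and corn oil replicate 3 the highest of 2 and the lowest of 2. Among 11921 other genes with a symbol, the patterns closest to Tff3 over the 6 arrays were those of Slco1a1, an organic anion transporter, Cxcl13, a B cell chemokine, and Gucy1b2, a guanylate cyclase subunit. After centring each gene on its mean, their root mean square differences from Tff3 were 0.34, 0.34 and 0.37 on the log2 scale. Slco1a1 read −0.29, 1.57 and 1.76 with corn oil and 0.06, 0.44 and 1.66 with chlorothalonil. Its first array was the lowest in each group, a likeness for which it was picked over these same arrays. The patterns closest to Lcn2 were those of Mcm8, Apobec2 and Terc, at 0.15, 0.21 and 0.22.

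The 95% intervals of the fold changes show what sizes of change these arrays leave possible, each taken for its gene alone in limma. With all 6 arrays the upper bound was under 2-fold for 9 of 10 markers. This count rests on all the arrays: it was 7 of 10 with any 1 of them left out, and 8 of 10 with no filter on dim probes. Without chlorothalonil replicate 3, the array with the conflicting label, the upper bounds were 2.21-fold for Havcr1, 2.19-fold for Clu and 2.06-fold for Tff3. With all arrays it was 1.77-fold for Havcr1, 1.92-fold for Lcn2, 1.90-fold for Clu and 1.46-fold for Spp1. It was lower for Timp1 at 1.35-fold and for Cd44 at 1.15-fold, and it was 1.46-fold for Vcam1, 1.68-fold for Gpnmb and 1.51-fold for Lgals3. For Tff3 the interval ran from 0.15-fold to 2.22-fold, so a large fall and a doubling both lie within it. Without corn oil replicate 1 it ran from 0.13-fold to 0.87-fold, and that of Lgals3 from 1.07-fold to 1.57-fold, so neither held 1-fold. Neither gene passed in that fit, with limma adjusted p-values of 0.234 and 0.184. The lower bound with all arrays was above 0.5-fold for 8 of 10, the exceptions being Tff3 and Lcn2, with 0.495-fold. The intervals hold the slide difference together with the treatment, and for the dim Havcr1 they rest on signals close to background.

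**Figure D3:**
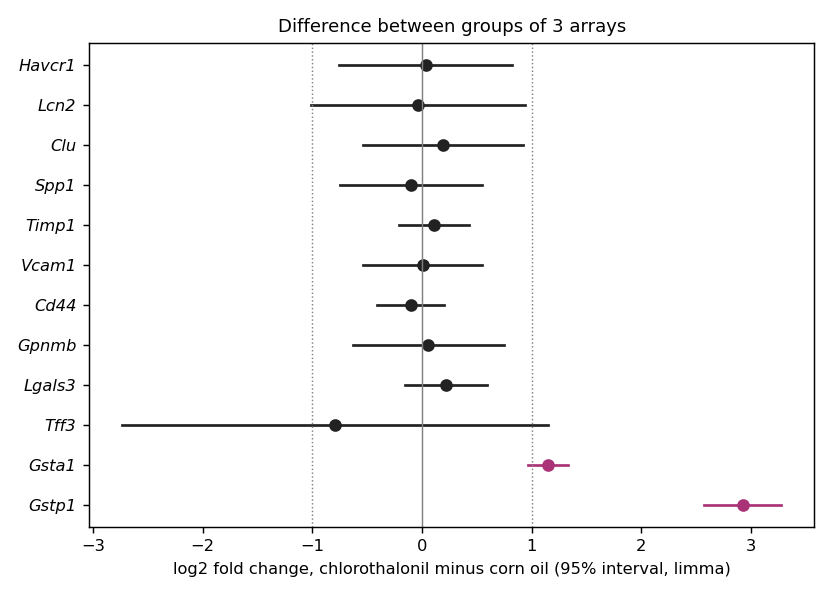
Log2 fold change, chlorothalonil minus corn oil, with its 95% interval from limma over 3 arrays per group, for the 10 markers in black and the glutathione transferases Gsta1 and Gstp1 in purple; dotted lines mark a change of 2-fold. Every black interval crosses 0, and those of Gsta1 and Gstp1, from 0.96 to 1.33 and from 2.57 to 3.28, do not.

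Other proteins measured in urine as signs of kidney damage were followed in a list of 17 genes, all measured, of which 2 rose, 0 fell and 15 did not pass in limma, against 3.12% of all features past the threshold. Of the 17, 5 had an unadjusted p under 0.05, 3 of them higher and 2 lower with chlorothalonil. The lower ones, Calb1 at −0.56 ± 0.14 (SE) and Igfbp7 at −0.48 ± 0.12, were named after their values were seen. The 2 that rose, Gstp1 and Gsta1, are glutathione S-transferases, enzymes of detoxification whose protein leaks from damaged tubules. The arrays measured their RNA in renal cortex, so a rise here is not a measure of that leakage. Gstp1 read 5.55, 5.89 and 6.09 with corn oil and 8.82, 8.69 and 8.79 with chlorothalonil. It rose by 2.93 ± 0.14 (SE) on the log2 scale, or 7.60-fold, with an adjusted p of 0.00297. Its probes ranged from 2.93 to 4.46. Gsta1 read 7.49, 7.65 and 7.47 against 8.72, 8.69 and 8.64, a rise of 1.15 ± 0.08, or 2.22-fold, with an adjusted p of 0.00592. Both belong to families of similar genes, so the share of the signal owed to each named gene is uncertain. Both rises passed the threshold without chlorothalonil replicate 3 as well, at 2.92 and 1.17.

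Promoter sequences were compared for the antioxidant response element core, TGACNNNGC on either strand, the element bound by NRF2 that drives glutathione transferase genes. RefSeq promoters of assembly GRCr8, 250 bases before to 50 after the gene start, were at hand for 8 of the 10 markers, and 2 of these, Timp1 and Cd44, held a match. Over all 33469 promoters the share with a match was 12.1%. The motif was chosen with the results known, and a match describes letters only. The windows below are printed to set these 2 markers, neither past the threshold, beside Gstp1, which rose, in the direction of the gene with the match in capitals.
Timp1, chrX:3771304-3771363, minus strand: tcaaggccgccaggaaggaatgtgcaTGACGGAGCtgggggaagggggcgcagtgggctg
Cd44, chr3:109699499-109699558, minus strand: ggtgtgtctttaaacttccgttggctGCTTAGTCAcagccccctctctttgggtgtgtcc
Gstp1, chr1:210769733-210769792, minus strand: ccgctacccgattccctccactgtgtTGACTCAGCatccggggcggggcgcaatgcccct
Counted from the gene start, the match began at −215 in Timp1, at −108 in Cd44, on the opposite strand, and at −61 in Gstp1. Gsta1 held a match after its start, beginning at 30. Timp1 and Cd44, which carry the core, had log2 fold changes of 0.11 and −0.10, and Gstp1, which also carries it, had 2.93.

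The partners of the markers were followed in 9 lists with 158 genes in all, the 17 urinary proteins included. Of these, 130 were measured, 2 rose, 0 fell and 23 had an unadjusted p under 0.05, with a median log2 fold change of 0.00. The shares, 1.54% past the threshold and 17.7% with an unadjusted p under 0.05, lay below the 3.12% and 19.7% of all features. Outside the urinary proteins, 0 genes passed in limma. Of 6 measured receptors for filtered proteins, 2 had an unadjusted p under 0.05. Timd2, a relative of Havcr1 that binds ferritin, differed by −0.72 ± 0.18 (SE) on the log2 scale, for an adjusted p of 0.101. Of 13 integrin, hyaluronan and linker genes around Spp1 and Cd44, 1 had an unadjusted p under 0.05, Cemip2, a hyaluronidase, at 0.37 ± 0.10 with an adjusted p of 0.133. Its probes ranged from 0.04 to 0.37.

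Of 15 metalloproteinases, their inhibitors and plasmin regulators, 3 had an unadjusted limma p under 0.05, and Timp4, a relative of Timp1, differed by −0.47 ± 0.12 (SE) on the log2 scale, for an adjusted p of 0.107. Of 13 adhesion molecules and chemokines, 0 did, and Icam1, which like Vcam1 holds leukocytes, had a log2 fold change of −0.23 ± 0.12 and an adjusted p of 0.353. Of 12 NF-kB and STAT3 pathway genes, known regulators of Lcn2 and Vcam1, 0 did, and Nfkb2 had a log2 fold change of −0.15 ± 0.07 and an adjusted p of 0.307, on probes from −0.15 to 0.05. Of 8 galectins, trefoil factors and their receptors, 1 did. Lgals2, a galectin related to Lgals3, read −0.94, −0.80 and 0.30 with corn oil and −2.82, −2.27 and −2.14 with chlorothalonil, a log2 fold change of −1.93 ± 0.37 with an adjusted p of 0.0593. Every treated animal was lower, and the gene missed the threshold.

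Of 14 lysosomal genes and their MiT/TFE regulators, a family known to drive Gpnmb, 2 had an unadjusted limma p under 0.05. Sqstm1, an autophagy adaptor, differed by 0.40 ± 0.09 (SE) on the log2 scale, for an adjusted p of 0.0856, on probes from −0.10 to 0.40. Of 34 other tubular injury genes, 9 had an unadjusted p under 0.05, 6 higher and 3 lower, a share to be read against 19.7% of all features. Gdf15, a secreted stress factor, read −0.24, 0.40 and −0.10 with corn oil and 0.92, 0.92 and 1.2 with chlorothalonil, a log2 fold change of 0.99 ± 0.19 with an adjusted p of 0.0562. Both Gdf15 probes had the treated group higher, at 0.94 and 0.99, and the gene missed the threshold.

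The marker lists of the other cell types in the tissue gave 1 call in limma. Of 5 measured genes of the red blood cell list, Slc25a39, a mitochondrial carrier, rose by 0.61 ± 0.08 (SE) with an adjusted p of 0.0251. The call for Slc25a39 was lost when any single array was left out, with adjusted p-values of 0.051 to 0.0987. All 5 genes were higher with chlorothalonil at an unadjusted p under 0.05, with a median log2 fold change of 0.27. Whether the larger rise of Slc25a39 came from red blood cells was not tested. Unadjusted p-values under 0.05, found for 19.7% of all features, were found for 6 of 16 proximal tubule genes, 4 higher and 2 lower with chlorothalonil. The smallest p among these was that of Slc13a3, at 0.34 ± 0.06, and the lower ones, named after their values were seen, were Slc5a12 at −0.27 ± 0.08 and Slc5a2 at −0.35 ± 0.10. Such p-values were also found for 2 of 8 distal nephron genes, both lower, among them Calb1 at −0.56 ± 0.14. They were found for 1 of 12 collecting duct and medullary genes, Slc4a1 at 0.73 ± 0.21, and for 2 of 5 perirenal fat genes, both higher, among them Cidea at 0.58 ± 0.20. They were found for 0 of 7 lymphocyte, 0 of 8 podocyte and parietal, 0 of 8 endothelial and 0 of 10 fibroblast and smooth muscle genes. In these 4 lists the smallest p belonged to Gzmb at 0.31 ± 0.19, Podxl at 0.22 ± 0.14, Cdh5 at 0.17 ± 0.09 and Col3a1 at 0.44 ± 0.25.

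Leaving out each array in turn moved the small fold changes of the markers across 0 but gave 0 of 10 past the threshold in each of the 6 fits. Without chlorothalonil replicate 3, the array with the conflicting label, Havcr1 was at 0.22, Lcn2 at −0.35, Clu at 0.45 and Spp1 at 0.13. Timp1 and Lgals3 stayed above 0 in every such fit, at 0.02 to 0.23 and 0.12 to 0.37, and Tff3 stayed below 0. The sign changed in at least 1 of the 6 fits for the other 7.

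**Figure D4:**
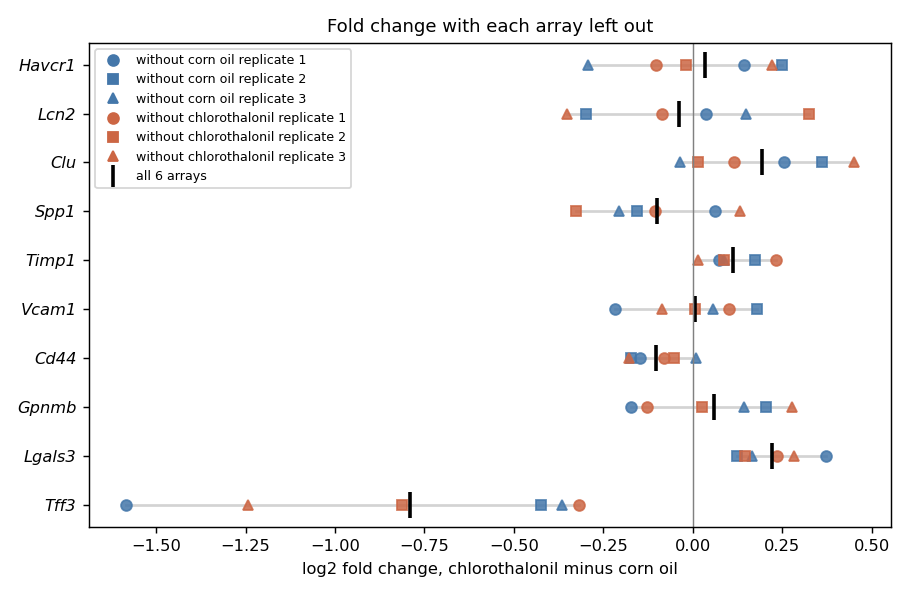
Log2 fold change of each marker with 1 array left out, blue for a corn oil and orange for a chlorothalonil array, with the marker shape giving the replicate and the black bar the value from all 6 arrays. Tff3 runs from −1.58 to −0.32, and Lcn2 from −0.35 to 0.32.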

How the data were processed

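Spot intensity was deposited on a linear scale in Agilent Feature Extraction files (version 10.7 per the submitters' processing notes); per the file headers the processed signal is background-subtracted within each array. The deposited value table is a ratio, the processed signal over 1 constant per array (842 to 960), close to that array's 75th percentile (840 to 958). Its column medians were 0.105 to 0.112. No label states that scaling.

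Main values are log2 processed signal minus the array's 75th percentile. Outlier spots (0 to 9 per array) were left out. The filter asked that a probe be well above background throughout 1 group or both, with 2 or more usable arrays in each (39862 probes). Accessions matched 1 gene of the RefSeq table (GRCr8) for 28206 probes, and 33331 stayed unnamed. The array design cites an older rat build. The brightest probe stood for a gene, giving 29115 features. The test was limma 3.58.1 (R 4.3.3), with no covariate and an adjusted p of 0.05 as threshold. The script was tested on simulated data.

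The markers and gene lists were chosen with earlier results of these data known. Named genes are the 10 markers, up to 4 passing genes per list or else the one with the smallest p, and the 3 genes nearest to the 2 markers of widest range. Alternatives are in the closing section. The files hold no probe sequences. With 3 arrays per group, their number limits the precision.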

Additional observations from a re-analysis of the deposited data

How the results depend on the processing

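In 11 other settings and with each of 6 arrays left out, 0 of 10 markers and 0 marker probes passed in limma, and the smallest adjusted p of a marker was 0.184. The settings were quantile normalization, median scaling, the 75th percentile over probes well above background on all arrays, normexp, the deposited value table, no filter, well above background on all arrays (which leaves out Havcr1), outlier spots kept, the mean of probes, a trended robust prior and the replicate number as a block. Of 169 marker values under these alternatives 20 changed sign. Normexp turned Havcr1 to −0.0557, Lcn2 to 0.0061 and Vcam1 to −0.0993. Median scaling turned Lcn2 to 0.0145. Vcam1 was −0.0024 with quantile normalization and −0.0033 with the percentile over probes above background. Leaving out 1 array, the ranges were −0.29 to 0.25 for Havcr1, −0.35 to 0.32 for Lcn2, −0.0360 to 0.45 for Clu, −0.33 to 0.13 for Spp1, −0.22 to 0.18 for Vcam1, −0.18 to 0.0086 for Cd44 and −0.17 to 0.28 for Gpnmb. The markers' median ranged from −0.0835 to 0.149. The count of features past the threshold was 909 (378 higher, 531 lower). Median scaling gave 803 (435 higher, 368 lower). The count was 1325 with normexp, 1315 with the trended prior, 172 with no filter, 112 to 388 with 1 array left out and 0 with the replicate block. With that block 5271 features had an unadjusted p under 0.05, and Gstp1 and Gsta1 both had an adjusted p of 0.077, so 0 partner genes passed with it. Deviations of same-numbered arrays correlated at 0.09, 0.02 and 0.05 over 29109 features, and those of differently numbered arrays at −0.09 to 0.05. The block lowered the SE of markers such as Clu (0.30 to 0.07), Lcn2 (0.40 to 0.12) and Tff3 (0.79 to 0.29). It raised that of Gpnmb (0.28 to 0.32) and left that of Lgals3 near 0.15. Beyond these correlations, whether the numbers pair the animals was not tested. Partner genes past the threshold were 2, but 6 with normexp, 4 with the filter on all arrays and 6 with the trended prior, where Gdf15 and Lgals2 also passed in each. They were 3 with median scaling and without corn oil replicate 2, where Gdf15 passed, and 3 without corn oil replicate 1, where Prom1 passed. In the other settings, the block aside, they were 2. Slc25a39 did not pass with no filter (adjusted p of 0.0844) or with the block (0.0939). The slide as a block was not run, since each group lay on 1 slide. The causes of these shifts were not tested.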

Other observations

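Alb and Fabp1, plasma and fatty acid carriers of the urinary protein list, were chosen after their values were seen. Alb read −4.91, 2.00 and 1.49 with corn oil and 0.93, 2.32 and 0.40 with chlorothalonil, in replicate order. Fabp1 read −4.94, −0.18 and −0.92 against −1.13, 0.26 and −1.56, so corn oil replicate 1 was far below the other 5 arrays for both. On that array Tff3, Gpnmb, Vcam1 and Timp1 were also the lowest of the corn oil group. Spp1 and Lgals3 were the highest of that group there, and Havcr1, Lcn2, Clu and Cd44 lay in the middle. Rbp4, a retinol carrier also chosen after its values were seen, read 1.91, 1.33 and 4.36 with corn oil and 1.24, 1.56 and 0.91 with chlorothalonil, high on corn oil replicate 3 alone. Their log2 fold changes were 1.69 ± 1.89 (SE), 1.2 ± 1.30 and −1.30 ± 0.78, and 0 of the 3 passed in limma.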
